A study of Triticum aestivum with 24 samples.

Results

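The leaves of heat-stressed and of unstressed wheat were compared on the last day of a 5-day heat stress, 0 days after treatment (0 DAT). All miRNA tags of the deposited count table entered the comparison, 103 named for the 5p arm of their precursor, 87 for the 3p arm and 12 with no arm in the name, each an annotated mature miRNA or a variant of one (isomiR) that is counted under its own sequence. It rests on the 8 libraries of 0 DAT, out of 24 in the series. The other 16 libraries (1 and 4 DAT) entered the joint scaling of all libraries and the estimate of the spread between replicates. They also served to compare the heat effect between days.

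Plants of the hexaploid Triticum aestivum cv Chinese Spring, a reference cultivar grown from the seed of a single selfed plant, were raised in a growth cabinet at 18 °C by day (16 h) and 16 °C by night (8 h). At the boot stage, when the spike is still inside the flag leaf sheath, heat was applied as 37 °C for 5 days to watered plants, and the control plants were kept in the cabinet regime throughout (72 plants per treatment). Each library was made from equal amounts of leaf RNA of 18 plants, giving 4 heat libraries and 4 control libraries (n = 4 each), so differences between single plants and between leaf cell types are averaged within a library. In such bulk RNA, fewer cells that make a miRNA and less of it per cell cannot be told apart. The table holds no leaf marker genes, so the tissue label could not be checked against any.

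In plants, DICER-LIKE1 cuts the stem of a hairpin precursor into a duplex of a guide strand and its partner, the star strand, and one of the strands is loaded into an ARGONAUTE protein, which cleaves or represses messenger RNAs with a matching site. The arm of the hairpin from which a tag comes is written 5p or 3p, and tags of an arm differ by where the cut falls or by bases lost or added at an end. Many conserved plant miRNAs target transcription factors, while others act on nutrient and copper proteins or on F-box proteins.

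The sequences on which the results turn are given here in the 5′ to 3′ direction, with T for U as in the deposited table. Capitals mark the seed, bases 2 to 8. Of the 35 called tags, 9 stand in the deposited table as the reverse complement (miR1120-1361.2-5p, miR1121-18-3p, miR1122-1462-3p, miR1133-72-3p, miR1135-757-5p, miR1135-1490-3p, miR1135-1673-5p, miR1135-1765-5p and miR1135-1920-5p). They are given here as in the study's list of named sequences, and which strand was counted is not settled, so their first base and seed rest on that orientation. The members of miR528, a monocot family, included the tag with the largest difference:
miR528-1.1-5p: gCAGCAGCggtggaaggggc
miR528-1.2-5p: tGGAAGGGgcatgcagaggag
miR528-1.3-3p: cCTGTGCCtgcctcttccatt

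Of miR166, the 5p tags that fell do not share a seed:
miR166-11-5p: gGAATGTTgtctggctcgggg
miR166-8.2-5p: gGGTTGTTgtctggttcaagg

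The 3p tags of miR166 formed ladders that start at the same base and end at different ones. The first 2 ladders share a seed and differ by a base near the 3′ end, and the last begins 1 base earlier. They are shown because the called tag was the shortest of each ladder:
miR166-4-3p: tCGGACCAggcttcattcccct
miR166-9-3p: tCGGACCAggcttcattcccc
miR166-6-3p: tCGGACCAggcttcattccc
miR166-1-3p: tCGGACCAggcttcattcc
miR166-13-3p: tCGGACCAggcttcattc
miR166-8.3-3p: tCGGACCAggcttcaatccctt
miR166-8.1-3p: tCGGACCAggcttcaatccct
miR166-8.2-3p: tCGGACCAggcttcaatccc
miR166-7.1-3p: tCGGACCAggcttcaatcc
miR166-5.1-3p: tCGGACCAggcttcaatc
miR166-4.1-3p: tTCGGACCaggcttcattccc
miR166-4.2-3p: tTCGGACCaggcttcattcc
miR166-12.2-3p: tTCGGACCaggcttcattc

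The tags of miR9772 slide along their precursor by single bases, so that nearly the same RNA has 4 different seeds:
miR9772-5-5p: cGTTGAGAtgagattacccca
miR9772-2.2-5p: gTTGAGATgagattaccccat
miR9772-2.1-5p: tTGAGATGagattaccccata
miR9772-1-5p: tGAGATGAgattaccccatac
miR9772-4-5p: tGAGATGAgattaccccata
miR9772-6-5p: tGAGATGAgattaccccat

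In miR9662, the 5p tags fell and a shortened 3p tag rose next to its longer form:
miR9662-1.3-5p: gCGGCTCTgtggtgttcaagc
miR9662-2.8-5p: cGGCTCTGtggtgttcaagc
miR9662-1.2-3p: tGAACATCccagagccaccgg
miR9662-1.6-3p: tGAACATCccagagccacc

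Tags of miR1118, miR1137 and miR1439 share a seed, and 2 of these 4 rose:
miR1118-310-5p: tCCGTTCCataatgtagtgcc
miR1137-385-5p: tCCGTTCCaaaatagatgac
miR1137-121-5p: tCCGTTCCaaaatagatgact
miR1439-2-5p: tCCGTTCCaaaatagatgacc

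The tags of miR1135 that fell overlap in sequence, the 3p tag as the reverse complement of the 5p tags in the orientation shown:
miR1135-757-5p: cCGTTCGGaattacttgtctcgga
miR1135-1673-5p: tCCGTTCGgaattacttgtctcgg
miR1135-1765-5p: gGAATTACttgtcgcggaaat
miR1135-1920-5p: gGAATTACttgtcacggaaat
miR1135-1458-3p: tGCGACAAgtaattccgaacg

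The short tags of other repeat-rich families that rose share no seed:
miR1121-18-3p: aGTGATCTaaacgctctta
miR1120-2337-3p: tTCTTATAttatgggact
miR1133-72-3p: aGTACAAAgttgggtcat

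Together the tags carried 143 different seeds, 31 of which were shared by several tags (90 tags in all). No seed held calls in both directions. These counts use the orientation described above.

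The heat libraries held 68947 to 123731 miRNA reads and the control libraries 58501 to 208454. At this depth 3 reads of a tag are worth 22.4 to 50.2 RPM, the reads of a tag scaled to a library of fixed size, in a heat library and 16.8 to 45.2 RPM in a control library, so RPM values below about these are a handful of reads. RPM values are relative to all miRNA reads of a library after TMM scaling, which assumes that most tags are level across libraries. Between 195 and 200 tags were detected in the heat libraries and at least 198 in each control library. Over tags, log2 RPM correlated with r of 0.904 to 0.948 among heat libraries, 0.922 to 0.97 among control libraries and 0.81 to 0.893 between the treatments, and tags are not independent replicates. Each library was sequenced in several runs that the labels do not assign, so a run effect was not tested.

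With edgeR's quasi-likelihood test and Benjamini-Hochberg adjustment over all tags, 35 differed between heat and control at a false discovery rate (FDR) below 0.05, which is 17.3% of those tested. Of these, 18 were higher in heat (8.91%) and 17 lower (8.42%). They belonged to 14 families, 7 of which held calls in both directions. The folds ran between 1.92 and 25.6 for the tags that rose and between 1.86 and 73.8 for those that fell. Without TMM scaling 17 tags were higher and 7 lower, and the median log2 fold change of all tags was 0.09 without it, against -0.04 with it. In 22 tags (10.9%) every heat library was above every control library and in 25 (12.4%) every heat library was below, and 31 of the 35 called tags were among these 47. Without heat library 3 only 22 tags were called, 10 of them lower, and without heat library 1 the lower tags also numbered 10.

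By abundance, 14 of the 92 tags with a mean count under 20 were called (11 higher, 3 lower), 17 of the 78 with 20 to 100 reads (6 higher, 11 lower) and 4 of the 32 with more (1 higher, 3 lower). Of the 27 tags with a mean above 1000 RPM, 3 were called, against 17.3% of all tags, and of the 9 above 10000 RPM none was, with no log2 fold change beyond 0.71 in either direction. In all, 13 of the 35 called tags had fewer than 100 reads over the 4 libraries in each treatment. The most abundant tag, miR166-4.1-3p, which guides the cleavage of class III HD-ZIP transcription factor transcripts, stood at 565079, 362032, 410826 and 285747 RPM in the heat libraries, against 397782, 365755, 343217 and 499883 RPM in the control libraries. The treatments overlapped, with a log2 fold change of 0.02 ± 0.24 (SE) and an adjusted p of 0.979 by edgeR.

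**Figure D1:**
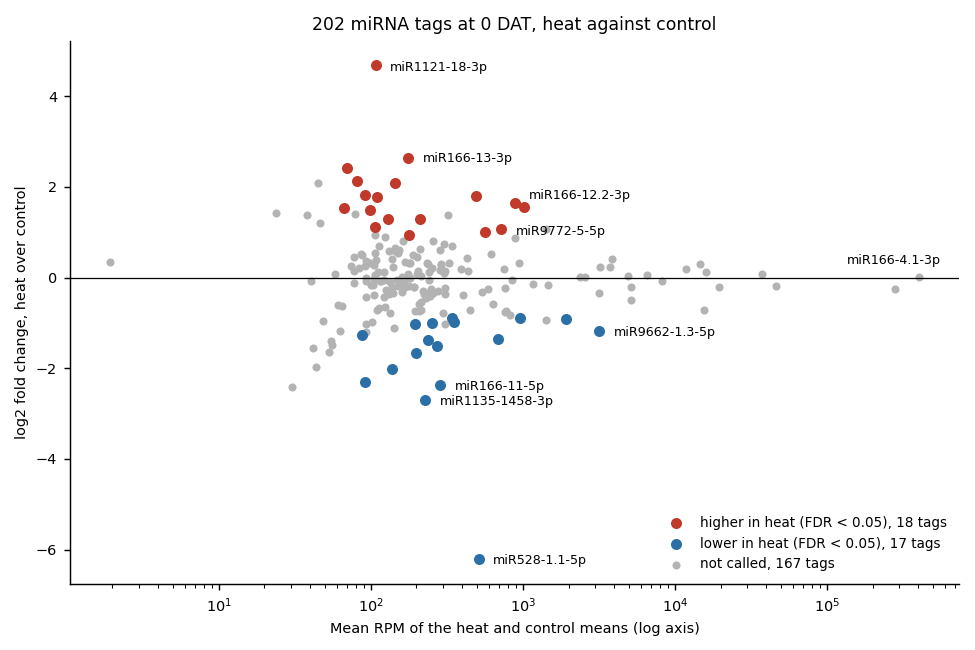
Each point is 1 tag, with the mean of its heat and control RPM on a log axis and its log2 fold change, heat over control, on the vertical axis. The 18 higher and 17 lower tags lie at the left and middle of the abundance range, miR528-1.1-5p stands alone at -6.21, and the tags above 10000 RPM stay close to 0.

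Family miR528, whose known targets in rice include a copper-containing ascorbate oxidase, held the most affected tag. Among the study's selected targets, superoxide dismutase and ascorbate oxidase are listed for miR528-1.2-5p. The most affected tag, miR528-1.1-5p, has another seed, and no target is given for it here. Its 20-nt tag miR528-1.1-5p was represented by 1, 0, 2 and 2 reads in the heat libraries, against 73, 219, 99 and 119 reads in the control libraries. In relative abundance this was 16.7, 0, 14.9 and 21.8 RPM in the heat libraries, against 487, 1399.5, 1492 and 668 RPM in the control libraries. The treatments were far apart, and the heat library without a read allows up to 27.2 RPM. The log2 fold change was -6.21 ± 0.72 (SE, edgeR, adjusted p = 1.1e-08), a 73.8-fold lower level that rests on 5 reads in heat.

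The other tags of the same hairpin had smaller differences. The 5p tag miR528-1.2-5p, which begins 10 bases downstream and shares 10 bases with miR528-1.1-5p, stood at 184, 163, 157 and 175 RPM in the heat libraries, against 387, 339, 317 and 309 RPM in the control libraries. Its log2 fold change was -1.001 ± 0.31 (adjusted p = 0.0262). The 3p tag miR528-1.3-3p fell to 88.7 ± 31.5 RPM in heat, against 306 ± 136 RPM in control (SD, n = 4 each), a log2 fold change of -1.67 (adjusted p = 0.0374). Without TMM scaling their adjusted p was 0.168 for miR528-1.2-5p and 0.135 for miR528-1.3-3p. Neither of these overlapped between treatments, but the calls were less stable than that of miR528-1.1-5p. The call of miR528-1.2-5p was lost without heat library 2, 3 or 4 or control library 1 (adjusted p up to 0.0719), and that of miR528-1.3-3p without heat library 1, 2, 3 or 4 or control library 2 or 3 (adjusted p up to 0.114). Tag miR528-1.5-5p, which starts 1 base after miR528-1.2-5p, had 55.3 against 21 RPM in heat and control (log2 fold change 1.39, adjusted p = 0.256), and miR528-1.4-3p 54.6 against 61.2 RPM (adjusted p = 0.952). Relative to miR528-1.3-3p, the reads of miR528-1.1-5p came to 33.3%, 0%, 12.5% and 28.6% in the heat libraries, against 243%, 406%, 309% and 340.0% in the control libraries, a ratio 18.4 times lower in heat by the mean of the log2 ratios (two-sided exact permutation p = 0.0286, adjusted p = 0.0762 over 16 arm pairs). Summed over its 5 tags, the family averaged 382 ± 89.6 RPM in heat, against 1738 ± 629.8 RPM in control (SD, n = 4 each), and its log2 fold change of -2.16 ± 0.28 passed edgeR's test over the 37 families (adjusted p = 7e-06). Tag miR528-1.1-5p held 510 of the family's 891 reads in control and 5 of its 159 in heat, so it weighs heavily in this sum.

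Other nutrient families did not pass. The copper, phosphate and sulfate families miR395, miR398, miR399 and miR528 together had 11 tags, 0 higher and 3 lower (27.3% lower, against 8.42% of all tags, and 0 higher against 8.91%), with a median log2 fold change of -0.74 against -0.04 over all tags, and the 3 that fell are those of miR528. The tags of miR398, which targets copper/zinc superoxide dismutase, were sparse: miR398-1.2-3p had 83.7, 0, 44.7 and 0 RPM in the heat libraries, against 0, 204, 90.4 and 16.8 RPM in the control libraries (log2 fold change -1.40, adjusted p = 0.484). Tag miR399-18-3p, of the family that acts on phosphate homeostasis through PHO2, stood at 192 ± 28.2 RPM in heat, against 273 ± 99.5 RPM in control (adjusted p = 0.446). In miR395, a regulator of sulfate assimilation, the libraries of a treatment differed more than the treatments did: miR395-18-3p had 83.7, 436, 37.3 and 10.9 RPM in the heat libraries, against 140.1, 473, 362 and 28.1 RPM in the control libraries. At this depth and spread no difference was detectable in these families.

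**Figure D2:**
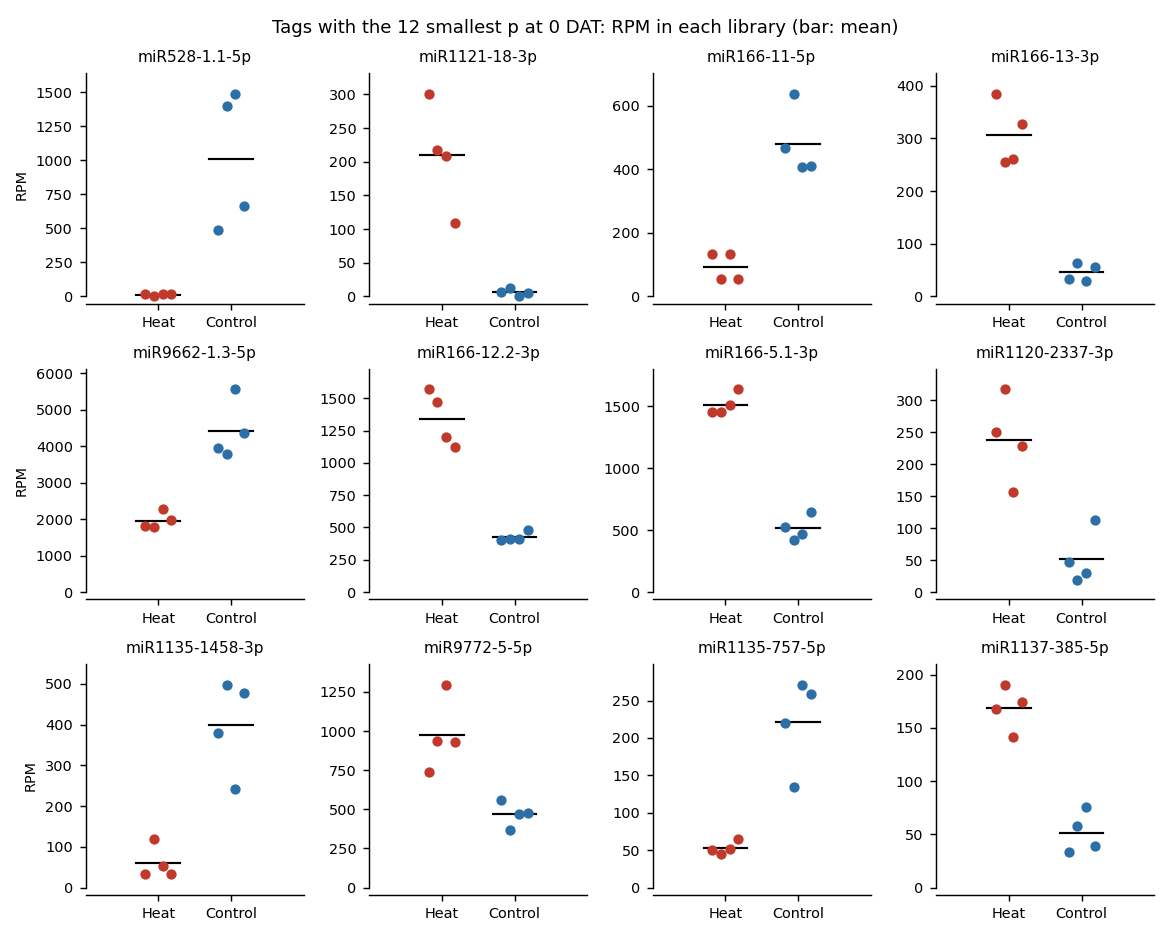
RPM in each of the 4 heat libraries (red, left) and 4 control libraries (blue, right) for the 12 tags with the smallest p, on linear axes that start at 0, with a bar at the mean. In none of the 12 panels do the treatments overlap, and miR528-1.1-5p lies at 0 to 21.8 RPM in heat.

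Family miR166 as a whole did not pass the test, with 78.6% ± 3.14 of the miRNA reads in heat and 79.2% ± 2.21 in control (SD, n = 4 each), while 5 of its 23 tags did. On the 5p arm, the star side, miR166-11-5p had 134, 54.5, 134 and 54.6 RPM in the heat libraries, against 467, 639, 407 and 409.7 RPM in the control libraries. Heat libraries 2 and 4 were lowest, and the highest of them was below the lowest control library. Its log2 fold change was -2.36 ± 0.39 (adjusted p = 0.000138). The other 5p tag that fell, miR166-8.2-5p, had 236 ± 49.3 RPM in heat, against 476 ± 78.3 RPM in control (SD, n = 4 each), a log2 fold change of -0.99 (adjusted p = 0.00931), whereas miR166-5.3-5p did not pass, with 130.4 against 135 RPM (adjusted p = 0.895). The call of miR166-8.2-5p was lost without TMM scaling (adjusted p = 0.067).

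On the 3p arm of miR166, the rise was at the short ends of the ladders. The 18-nt tag miR166-13-3p had 385, 254, 261 and 328 RPM in the heat libraries, against 33.3, 63.9, 30.1 and 56.1 RPM in the control libraries, a log2 fold change of 2.64 ± 0.46 (adjusted p = 0.000175). Tag miR166-5.1-3p, also 18 nt, had 1456, 1452, 1506 and 1638 RPM in the heat libraries, against 527, 422, 467 and 645 RPM in the control libraries, a log2 fold change of 1.55 ± 0.31 (adjusted p = 0.00125). The 19-nt tag miR166-12.2-3p had 1573, 1470.4, 1200.0 and 1125 RPM in the heat libraries, against 400.2, 409, 407 and 483 RPM in the control libraries, a log2 fold change of 1.65 ± 0.31 (adjusted p = 0.00067). In all of them the lowest heat library exceeded the highest control library by more than the whole spread of the control libraries.

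The longer members of the same ladders did not follow. The 21-nt tag miR166-9-3p averaged 257974 ± 49321 RPM in heat, against 307525 ± 65861 RPM in control (log2 fold change -0.25, adjusted p = 0.588) and the 22-nt tag miR166-4-3p 2803 ± 998 RPM in heat, against 3531 ± 1208 RPM in control (log2 fold change -0.34, adjusted p = 0.552). The 20-nt tag miR166-6-3p had a log2 fold change of -0.24 and the 19-nt tag miR166-1-3p one of 0.74, neither past the threshold. In the second ladder, miR166-8.1-3p (21 nt) stood at -0.18, miR166-8.2-3p (20 nt) at -0.20 and miR166-7.1-3p (19 nt) at -0.72 on the log2 scale. The last of these was close to the threshold in the opposite direction to its 18-nt neighbour (adjusted p = 0.0631), and it was called lower without control library 2 (adjusted p = 0.0284).

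The same question was put to every shortened tag, by its ratio to the longest tag of the table that starts with the same bases. Of 32 such pairs, 24 had a higher mean log2 ratio in heat. In 9 pairs every heat library was above every control library and in 2 every heat library was below. The exact permutation test (two-sided) gave p = 0.0286 for each of these 11, the smallest that 4 libraries against 4 allow, and an adjusted p of 0.0831 over the 32 pairs, so none passed after adjustment. Pairs with the same longer tag are not independent of each other. The median difference of the log2 ratios was 0.13 over the 18 pairs in which 1 base was missing, 0.22 over 8 pairs with 2 missing bases, 0.89 over 4 pairs with 3 and 2.41 over the 2 pairs with 4, both of miR166.

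For miR166-13-3p over miR166-4-3p, which has 4 more bases, the ratio of reads was 9.02%, 12.4%, 10.2% and 14% in the heat libraries, against 0.868%, 2.55%, 1.13% and 1.1% in the control libraries. The heat ratios were 8.00 times higher by the mean of the log2 ratios. For miR166-5.1-3p over miR166-8.3-3p it was 198%, 291%, 321% and 357% in the heat libraries, against 78.2%, 88%, 67.4% and 89.8% in the control libraries. Here the short tag outnumbered the long one in every heat library and in no control library. Both are rare beside the 21-nt miR166-8.1-3p, with mean counts over heat and control libraries of 111 and 69.25 against 5450. Likewise, miR166-4-3p averaged 387 reads, against 34139 of the 21-nt miR166-9-3p. Tag miR166-12.2-3p reached 0.278%, 0.406%, 0.292% and 0.394% in the heat libraries, against 0.101%, 0.112%, 0.119% and 0.0966% in the control libraries of miR166-4.1-3p, 3.15 times higher in heat. The ratio of miR166-1-3p to miR166-4-3p was 2.14 times higher in heat, with 12.2%, 15%, 11.4% and 17.8% in the heat libraries, against 5.56%, 6.89%, 7.34% and 6.15% in the control libraries, although miR166-1-3p itself was not called.

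Beyond miR166, the 19-nt miR9662-1.6-3p had 10%, 8.85%, 7.26% and 4.42% in the heat libraries, against 2.67%, 2.26%, 1.23% and 2.4% in the control libraries of the reads of miR9662-1.2-3p, a ratio 3.49 times higher in heat. The 20-nt miR9662-1.4-3p differed less, with 4.69%, 4.45%, 4.61% and 4.41% in the heat libraries, against 2.83%, 3.98%, 2.99% and 4.01% in the control libraries of miR9662-1.1-3p. The 20-nt miR1137-385-5p reached 20.8%, 21.4%, 19.2% and 23.2% in the heat libraries, against 4.5%, 9.09%, 10% and 5.69% in the control libraries of miR1137-121-5p. In each of these pairs the highest control library was below the lowest heat library. In miR167, the 21-nt miR167-1-5p came to 388%, 347%, 368% and 271% in the heat libraries, against 110.0%, 124%, 171% and 79.5% in the control libraries of the 23-nt miR167-35-5p. Tag miR167-35-5p is itself rare, with a mean count of 24.75 against 1710.5 of the 22-nt miR167-2-5p. The 20-nt form of miR396-3-5p reached 0.938%, 0.763%, 1.00% and 0.761% in the heat libraries, against 0.537%, 0.402%, 0.366% and 0.654% in the control libraries of miR396-5-5p, a tag of the family that targets growth-regulating factors. Tag miR396-5-5p itself did not pass (log2 fold change 0.08, adjusted p = 0.923).

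In both exceptions the ratio was lower in heat. In miR156, which targets SPL transcription factors, the 20-nt miR156-3-5p outnumbered the 21-nt miR156-4-5p in all libraries, but by ratios of 30.6, 39.4, 37.6 and 46.7 in the heat libraries, against 83, 72.8, 80.7 and 71.3 in the control libraries. In miR169, which targets NF-YA transcription factors, miR169-43.1-3p had 25%, 68.4%, 84.2% and 86.7% in the heat libraries, against 450.0%, 157%, 200.0% and 600.0% in the control libraries of the reads of miR169-43.2-3p, so that the shorter tag was the rarer one in every heat library and the more frequent one in every control library. Several of those libraries had fewer than 10 reads of a tag.

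**Figure D3:**
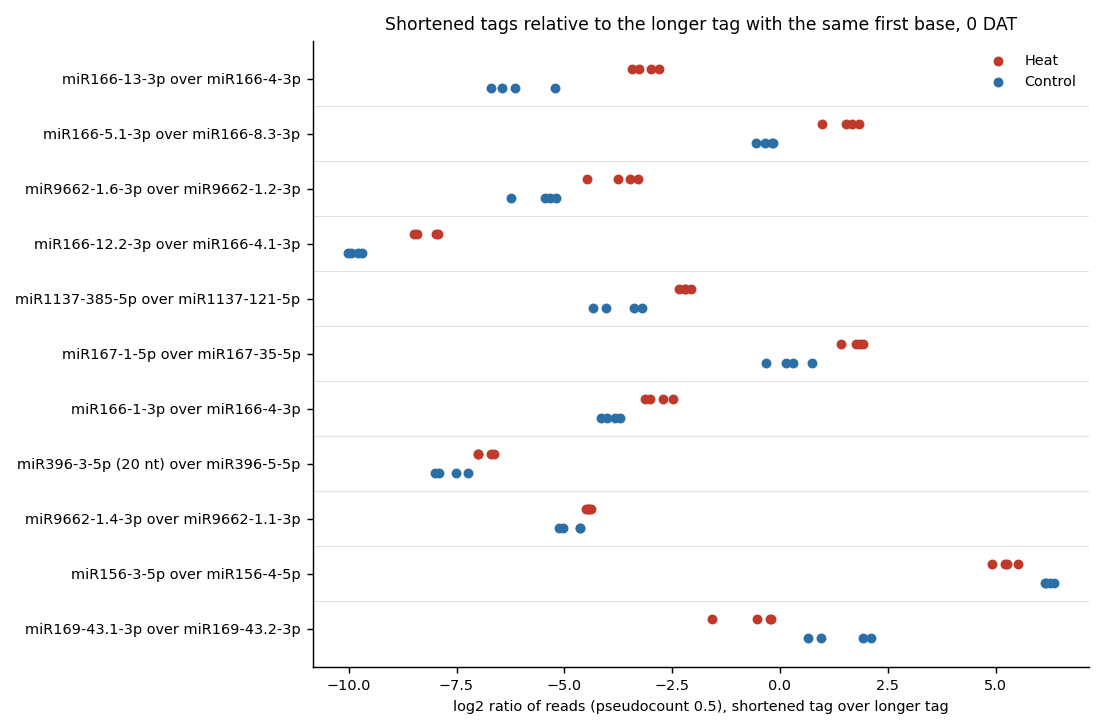
For the 11 pairs without overlap, the log2 ratio of the reads of a shortened tag to those of the longer tag with the same first bases is plotted for each heat library (red, upper row) and control library (blue, lower row). In 9 pairs the heat points lie to the right, most for miR166-13-3p over miR166-4-3p, and in the 2 at the bottom, of miR156 and miR169, to the left.

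Seen by tag length, the 17 tags of 18 or 19 nt had 7 higher and 1 lower, 41.2% higher against 8.91% over all tags, and a median log2 fold change of 1.28. The class had been seen to rise in earlier results of these libraries, so its count is a description. The 21 tags of 20 nt had 2 higher and 2 lower (median 0.16), the 116 tags of 21 nt 9 higher and 11 lower (median 0.01), the 18 tags of 22 or 23 nt none in either direction (median 0.11) and the 30 tags of 24 nt, all of miR11xx families, none higher and 3 lower (median -0.29). Of the 7 short tags that rose, 3 were of miR166, 1 of miR9662 and 3 of miR11xx families, and the 1 that fell was miR9772-6-5p, with 128 ± 25 RPM in heat, against 265 ± 39.6 RPM in control (SD, n = 4 each, log2 fold change -1.02, adjusted p = 0.0119, and 0.135 without TMM scaling). Tags of 18 or 19 nt took 0.522%, 0.749%, 0.576% and 0.67% of the miRNA reads in the heat libraries, against 0.251%, 0.31%, 0.342% and 0.253% in the control libraries (two-sided exact permutation p = 0.0286, adjusted p = 0.0714 over 5 length classes), and the treatments did not overlap. Tags of 20 nt took 2.57%, 2.07%, 2.38% and 2.58% in the heat libraries, against 3.42%, 3.51%, 2.58% and 3.24% in the control libraries (two-sided exact permutation p = 0.0286, adjusted p = 0.0714 over 5 length classes). Heat library 4 and control library 3 nearly touch, at 2.58% each. With the reads of miR166 left out the 20-nt shares overlapped, with 8.39% ± 1.46 in heat and 12.2% ± 2.63 in control (exact p = 0.0571).

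**Figure D4:**
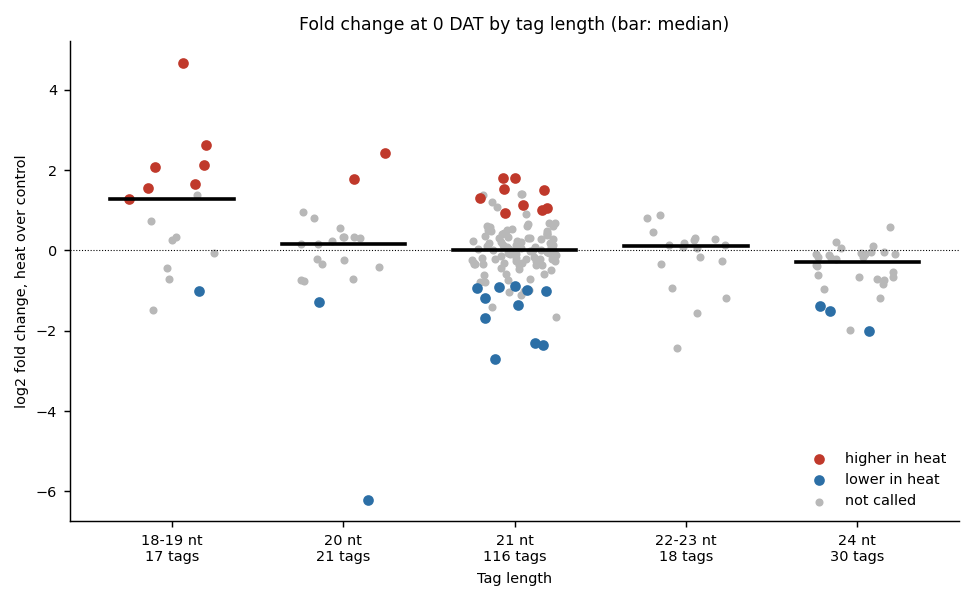
Log2 fold changes, heat over control, of all tags by tag length, with a bar at the median of each class, red for tags higher in heat, blue for tags lower in heat and grey for those not called. The median of the 18 to 19 nt class lies at 1.28, those of the other classes between -0.29 and 0.16.

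By first base, which in plants influences the ARGONAUTE protein a small RNA enters, the 25 tags that begin with G had 1 higher (4%, against 8.91% of all tags) and 6 lower (24%, against 8.42%), with a median log2 fold change of -0.43. The 27 tags that begin with A had 3 higher and 0 lower (median 0.01), the 29 with C 2 higher and 3 lower (median -0.31) and the 121 with T 12 higher and 8 lower (median 0.08). Tags that begin with G took 0.415%, 0.868%, 0.812% and 0.809% of the miRNA reads in the heat libraries, against 1.02%, 1.42%, 1.60% and 0.995% in the control libraries (two-sided exact permutation p = 0.0286, adjusted p = 0.0762). Outside miR166, A tags held 4.17% ± 0.744 of the reads in heat and 3.26% ± 0.146 in control, and G tags 3.19% ± 0.722 in heat and 5.53% ± 0.990 in control (SD, n = 4 each). The exact permutation p was 0.0286 for both, with an adjusted p of 0.0762. The G tags that fell are of miR528, miR166, miR9662 and miR1135, so the first base and the family cannot be told apart. Both of miR1135 begin with G only in the orientation shown and with A in the deposited one. With all tags in the deposited orientation, 15 began with G, 1 higher and 4 lower. Their share was 0.455% ± 0.121 in heat and 0.869% ± 0.300 in control (SD, n = 4 each, exact p = 0.0286, adjusted p = 0.114). The A share outside miR166 then overlapped (5.26% ± 0.547 in heat and 4.99% ± 0.145 in control, exact p = 0.457). That orientation was tried after seeing the data. By arm, the 103 tags of the 5p arm had 9 higher (8.74%) and 13 lower (12.6%) and the 87 of the 3p arm 9 higher (10.3%) and 4 lower (4.6%), against 8.91% and 8.42% of all tags.

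In miR9662, a cereal family with targets among mitochondrial transcription termination factor (mTERF) genes, 2 tags of the 5p arm fell and 1 of the 3p arm rose. The 5p tag miR9662-1.3-5p had 1807, 1779, 2266 and 1966 RPM in the heat libraries, against 3955, 3796, 5562 and 4355 RPM in the control libraries. The highest heat library stayed well below the lowest control library, and its log2 fold change was -1.17 ± 0.22 (adjusted p = 0.000651). It was the most abundant of the called tags. The 20-nt tag miR9662-2.8-5p, which lacks its first base, fell to 53.2 ± 29.4 RPM in heat, against 122 ± 27.3 RPM in control (adjusted p = 0.0414), but this call was lost without heat library 1, 2 or 3 or control library 1, 3 or 4 (adjusted p up to 0.166). It was also lost with DESeq2 (adjusted p = 0.0639), RLE scaling (0.0566), no TMM scaling (0.105) and the 8 libraries alone without (0.0536) or with the replicate block (0.086). On the 3p arm, miR9662-1.6-3p rose to 299 ± 48.2 RPM in heat, against 120.1 ± 21.2 RPM in control (SD, n = 4 each, log2 fold change 1.28, adjusted p = 0.00924), whereas the longer miR9662-1.1-3p and miR9662-1.2-3p (21 nt each) did not pass, at log2 fold changes of -0.08 and -0.49. The ratio of miR9662-1.3-5p to miR9662-1.1-3p was 23%, 37.9%, 23.7% and 19.8% in the heat libraries, against 45.3%, 48.2%, 58% and 56.5% in the control libraries. Together with miR9670, another family with mTERF targets, there were 12 tags, 1 higher (8.33%, against 8.91% of all tags) and 2 lower (16.7%, against 8.42%). Their median log2 fold change was 0.20.

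The most abundant 5p and 3p tags of a family were paired next. Only the pairs of miR528, miR9662 and miR398 lie on 1 listed precursor. Each tag was placed on 1 listed precursor only, although many match more than 1 locus. Whether the other pairs share a precursor is therefore not settled. A shared precursor does not by itself make a pair the strands of 1 duplex. Of the 16 pairs, 6 did not overlap between treatments, each with p = 0.0286 and an adjusted p of 0.0762 in the exact permutation test. In 5 of them the 5p tag had fewer reads per read of the 3p tag in heat. Besides miR528 and miR9662, miR166-8.2-5p stood at 0.0385%, 0.0527%, 0.0744% and 0.0803% in the heat libraries, against 0.102%, 0.122%, 0.171% and 0.0921% in the control libraries of miR166-4.1-3p. For miR1118-173.1-5p over miR1118-282-3p the ratio was 2.38 times lower in heat, and for miR1121-33-5p over miR1121-10-3p 1.68 times lower. The exception was miR1122-1484-5p, with 71.4%, 75%, 68.1% and 78.6% in the heat libraries, against 34.1%, 43.5%, 36.8% and 50.9% in the control libraries of miR1122-943-3p.

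The auxin and F-box families miR167, miR393, miR394 and miR9772 had 19 tags, of which 4 rose (21.1%, against 8.91% of all tags) and 1 fell (5.26%, against 8.42%), with a median log2 fold change of 0.23. Of the 4 that rose, 3 are overlapping tags of miR9772, and the calls of 2 of these are lost when single libraries are left out. In miR167, which targets auxin response factors, miR167-1-5p had 1104, 536, 1014 and 415 RPM in the heat libraries, against 220.1, 294, 181 and 174 RPM in the control libraries. The heat libraries were spread widely, but all were above the control libraries, and the log2 fold change was 1.80 ± 0.45 (adjusted p = 0.00813). The 22-nt tag miR167-2-5p, by far the most abundant of the family and 1 base longer, did not pass, with 16261 ± 5269 RPM in heat, against 13221 ± 2574 RPM in control (SD, n = 4 each, log2 fold change 0.30, adjusted p = 0.669). The 3p tag miR167-14-3p had 4049, 889.5, 1088 and 1769 RPM in the heat libraries, against 947, 914, 799 and 999 RPM in the control libraries. Heat library 2 lay below control libraries 1, 2 and 4 (adjusted p = 0.208 by edgeR). In miR393, which targets auxin receptors of the TIR1 group, the main tag miR393-6-5p did not pass, at 4968 ± 841 RPM in heat, against 4859 ± 1424 RPM in control (log2 fold change 0.03, adjusted p = 0.956). Tag miR394-3-5p, whose family targets an F-box gene, had 180.4 against 119.7 RPM in heat and control (adjusted p = 0.476).

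In miR9772, the 3 tags that start upstream of the main start rose. Tag miR9772-5-5p, which starts 3 bases upstream of miR9772-1-5p, had 736, 935, 1297 and 928 RPM in the heat libraries, against 560.3, 371, 467 and 477 RPM in the control libraries. All heat libraries were above all control libraries, and the log2 fold change was 1.06 ± 0.25 (adjusted p = 0.00632). Tag miR9772-2.2-5p, which starts 2 bases upstream, had 33.5, 127, 186 and 207 RPM in the heat libraries, against 60.0, 44.7, 75.4 and 0 RPM in the control libraries (log2 fold change 1.82, adjusted p = 0.0267). Heat library 1 lay within the control range there. Tag miR9772-2.1-5p, 1 base upstream, averaged 753 ± 161 RPM in heat, against 378 ± 77.2 RPM in control (log2 fold change 1.01, adjusted p = 0.0417).

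Of the 3 tags of miR9772 that start at the common base, the 21-nt miR9772-1-5p and the 20-nt miR9772-4-5p did not differ past the threshold (log2 fold changes -0.05 and 0.16), and the 19-nt miR9772-6-5p fell. The tags starting upstream made up 59.8% ± 4.94 of the family's reads in heat and 38.9% ± 5.00 in control (SD, n = 4 each). The lowest heat library was at 53.7% (exact 95% binomial interval 48.1% to 59.3%) and the highest control library at 44.6% (36.4% to 53.0%), intervals of counting error only. This grouping by first base was made after the values of the tags were seen and is a description. The call of miR9772-2.1-5p was lost without heat library 2, 3 or 4 or control library 1, 2, 3 or 4 (adjusted p up to 0.134), and that of miR9772-2.2-5p without heat library 3 or 4 or control library 4 (adjusted p up to 0.0833). The call of miR9772-2.2-5p was also lost with the 8 libraries alone, without (adjusted p = 0.0976) or with the replicate block (0.206). Without TMM scaling the adjusted p was 0.131 for miR9772-2.1-5p and 0.135 for miR9772-6-5p.

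The families with transcription factor targets (miR156, miR159, miR166, miR167, miR169, miR171, miR319 and miR396) had 55 tags, 5 higher and 3 lower, shares of 9.09% and 5.45% that are near those of all tags, with a median log2 fold change of 0.07. Outside miR166 and miR167, a tag of miR169 rose and a tag of miR171 fell. The 20-nt tag miR169-35-3p had 201, 136, 112 and 32.8 RPM in the heat libraries, against 0, 51.1, 0 and 22.5 RPM in the control libraries. Heat library 4 overlapped with the control libraries, which had no read in 2 of 4, and the log2 fold change of 2.42 ± 0.78 (adjusted p = 0.0254) lost its call without heat library 1, 2 or 3 or control library 1, 3 or 4 (adjusted p up to 0.0747) and with the 8 libraries alone (0.0597). The 19-nt miR169-34-3p, which holds the same bases without the first, had 463 against 181 RPM in heat and control (log2 fold change 1.38, adjusted p = 0.0593). Tag miR171-7-3p, of a family that targets GRAS-domain genes, fell to 636, 735, 708 and 601 RPM in the heat libraries, against 1534, 1125, 1100.4 and 1246 RPM in the control libraries. The treatments did not overlap (log2 fold change -0.90 ± 0.29, adjusted p = 0.0346), but the call was lost without heat library 1, 2, 3 or 4 or control library 1 or 4 (adjusted p up to 0.107) and without TMM scaling (0.248).

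The main tags of other families of this group did not pass. Tag miR156-1.1-5p had 26956, 11818, 14363 and 20061 RPM in the heat libraries, against 25286, 20935, 10658 and 27216 RPM in the control libraries, with a wide and overlapping spread in both treatments (adjusted p = 0.856). For miR156-3-5p the means were 11877 ± 3652 RPM in heat, against 19376 ± 6102 RPM in control (SD, n = 4 each, log2 fold change -0.71, adjusted p = 0.359). Tag miR159f-1, whose family targets GAMYB-like MYB genes, and miR319g-1, whose family targets TCP genes, had adjusted p-values of 0.719 and 0.194. The family total of miR319 did not overlap between treatments, with 172 ± 19.9 RPM in heat and 117 ± 23.5 RPM in control, and an adjusted p of 0.295.

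The miR11xx and miR1439 families, which have many loci in the wheat genome, made up 101 tags, with 9 higher (8.91%) and 8 lower (7.92%), close to the shares of all tags, and a median log2 fold change of -0.09. No role is given here for the tags of these families. The largest rise of the comparison was that of the 19-nt miR1121-18-3p, with 18, 24, 28 and 10 reads in the heat libraries, against 1, 2, 0 and 1 reads in the control libraries. As relative abundance this was 301, 218, 209 and 109 RPM in the heat libraries, against 6.67, 12.8, 0 and 5.61 RPM in the control libraries. The treatments were separate, while the control library without a read allows up to 45.2 RPM. The log2 fold change was 4.68 ± 0.86 (adjusted p = 1.86e-05), 25.6-fold and resting on 4 reads in control.

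Other short tags of these families rose as well. The 18-nt miR1120-2337-3p had 251, 318, 157 and 229 RPM in the heat libraries, against 46.7, 19.2, 30.1 and 112 RPM in the control libraries. Control library 4 was the highest of its group and still below every heat library, and the log2 fold change was 2.08 ± 0.45 (adjusted p = 0.00194). The 18-nt miR1133-72-3p had 184, 118, 171 and 43.7 RPM in the heat libraries, against 20.01, 38.3, 60.3 and 11.2 RPM in the control libraries (log2 fold change 2.13, adjusted p = 0.00836), and heat library 4 overlapped with the control range. The 20-nt miR1137-385-5p had 167, 191, 142 and 175 RPM in the heat libraries, against 33.3, 57.5, 75.4 and 39.3 RPM in the control libraries, without overlap, and a log2 fold change of 1.78 ± 0.45 (adjusted p = 0.00765). The main tag of its family, miR1137-443-5p, did not pass, with 16788 ± 2749 RPM in heat, against 15442 ± 1350.0 RPM in control (adjusted p = 0.762).

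The remaining higher tags of these families were of 21 nt. Tag miR1118-752-5p had 145 ± 48.4 RPM in heat, against 52.1 ± 14.2 RPM in control (SD, n = 4 each, 2.82-fold, adjusted p = 0.00836) and miR1118-310-5p 99 ± 19.4 RPM in heat, against 34.5 ± 8.1 RPM in control (log2 fold change 1.53, adjusted p = 0.0426). The call of miR1118-310-5p was lost whichever of the 8 libraries was left out (adjusted p 0.0554 to 0.102). Tag miR1122-532-5p had 188 against 71.9 RPM in heat and control (log2 fold change 1.30, adjusted p = 0.0111) and miR1122-1484-5p 237 against 121 RPM (log2 fold change 0.94, adjusted p = 0.0276). The call of miR1122-1484-5p was lost without heat library 1, 3 or 4 or control library 1 or 3 (adjusted p up to 0.0896). Tag miR1135-1490-3p was the only member of miR1135 that rose, with 146 against 66.7 RPM in heat and control (log2 fold change 1.12, adjusted p = 0.0267), a call lost without heat library 1, 2 or 3 or control library 1, 3 or 4 (adjusted p up to 0.0921).

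Summed over its tags, family miR1135 was lower in heat. Its 27 tags together averaged 4497 ± 672 RPM in heat, against 7179 ± 989 RPM in control (SD, n = 4 each), every heat library lay below every control library, and the log2 fold change was -0.67 ± 0.19 (adjusted p = 0.0278 by edgeR over 37 families). This call was lost without heat library 1, 2 or 4 or control library 1 or 4 (adjusted p up to 0.113) and without TMM scaling (adjusted p = 0.539). It was also lost with DESeq2 (adjusted p = 0.0533) and with the replicate block (adjusted p = 0.104). Among its tags 1 was higher and 5 were lower. Tag miR1135-1458-3p had 33.5, 118, 52.2 and 32.8 RPM in the heat libraries, against 380.2, 498, 241 and 477 RPM in the control libraries. Heat library 2 was the highest of the heat libraries and at less than the lowest control library, and the log2 fold change was -2.69 ± 0.62 (adjusted p = 0.00305). The 24-nt miR1135-757-5p had 50.2, 45.4, 52.2 and 65.5 RPM in the heat libraries, against 220.1, 134, 271 and 258 RPM in the control libraries, again apart, with a log2 fold change of -2.02 ± 0.52 (adjusted p = 0.00765).

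Of the other miR1135 tags that fell, miR1135-1765-5p was the most abundant, with 284, 363, 686 and 207 RPM in the heat libraries, against 1087, 863, 709 and 1330.2 RPM in the control libraries. Heat library 3 came close to the lowest control library there. Its log2 fold change was -1.35 (adjusted p = 0.0171), that of the 24-nt miR1135-1673-5p -1.38 (adjusted p = 0.0281) and that of miR1135-1920-5p -0.89 (adjusted p = 0.0254). Those 3 calls were not stable: the first was lost without heat library 1 or 4 or control library 4 (adjusted p up to 0.0649), the next without heat library 1, 2, 3 or 4 or control library 1, 3 or 4 (adjusted p up to 0.0815) and the last without heat library 1, 3 or 4 or control library 1 or 4 (adjusted p up to 0.0964). Without TMM scaling the adjusted p was 0.168 for miR1135-1673-5p and 0.182 for miR1135-1920-5p.

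Outside miR1135, 3 tags of the miR11xx families fell. Tag miR1121-33-5p, the second most abundant of the tags that fell, had 987, 1634, 1170.2 and 1518 RPM in the heat libraries, against 2281, 2358, 3166 and 2307 RPM in the control libraries. No heat library reached the lowest control library, and the log2 fold change was -0.92 ± 0.29 (adjusted p = 0.0268), lost without heat library 1 or 3 or control library 3 (adjusted p up to 0.0859) and without TMM scaling (0.24). Tag miR1120-1361.2-5p had 27 ± 19.3 RPM in heat, against 155 ± 58 RPM in control (log2 fold change -2.30, adjusted p = 0.0111), with no read in heat library 1, which allows up to 50.2 RPM. The 24-nt miR1122-1462-3p had 137 ± 51.7 RPM in heat, against 405 ± 107 RPM in control (log2 fold change -1.51, adjusted p = 0.0119, and 0.118 without TMM scaling).

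**Figure D5:**
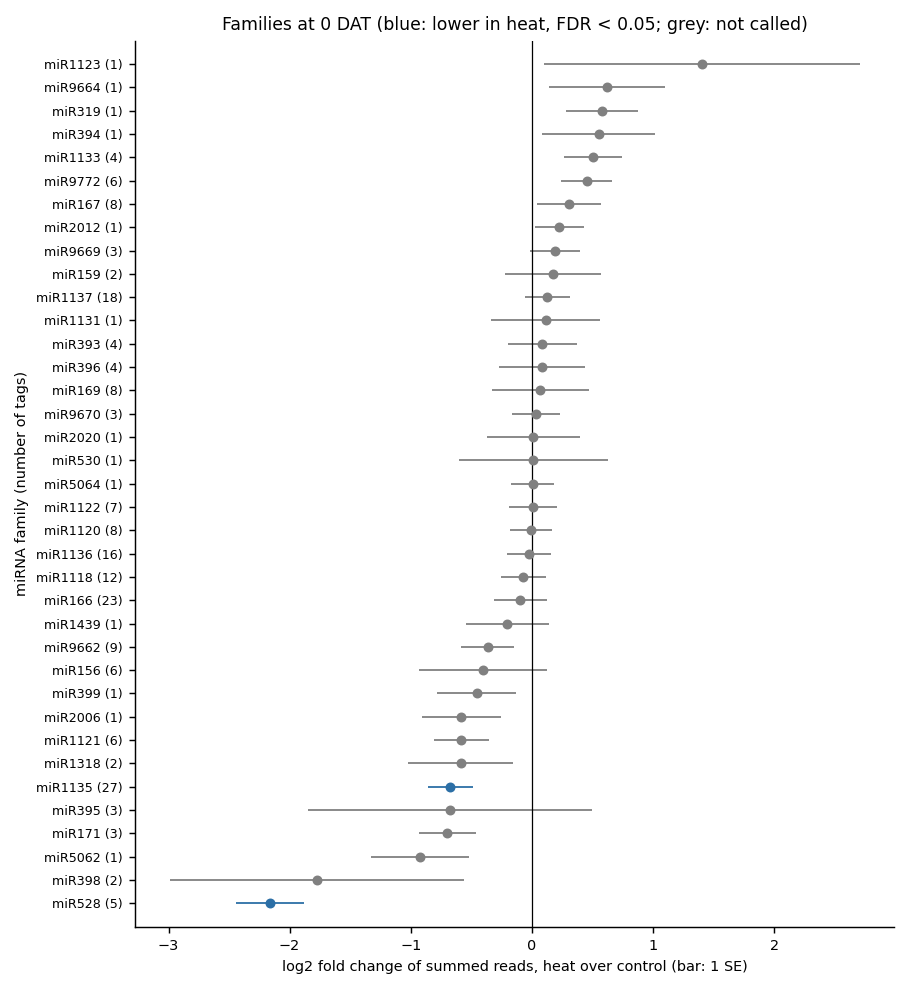
Log2 fold change of the reads summed per family, heat over control, with bars of 1 SE, for 37 families ordered by value, the number of tags of each in parentheses. Families miR528 (-2.16) and miR1135 (-0.67) passed the test, both lower in heat, and miR398 and miR1123 have the widest bars.

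Summed over tags, 2 of 37 families (5.41%) were called, both lower, and 0 higher. With an unadjusted p under 0.05 there were 7, and DESeq2 called 1. Family miR171 came next, with 1073 ± 36.3 RPM in heat, against 1745 ± 221 RPM in control (SD, n = 4 each) and heat libraries all below the control libraries (log2 fold change -0.70 ± 0.24, adjusted p = 0.0895). It was called when the fit used the 8 libraries of 0 DAT alone (adjusted p = 0.00979). Family miR1121 also did not overlap, with 2381 ± 468 RPM in heat, against 3579 ± 571 RPM in control (adjusted p = 0.158). Family miR9772, 3 of whose 6 tags rose, averaged 3133 ± 759.8 RPM in heat, against 2297 ± 293 RPM in control (adjusted p = 0.242), and miR1133 601 ± 68.3 RPM in heat, against 432 ± 158 RPM in control (adjusted p = 0.242, and 0.0373 without control library 3).

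The cereal families miR9662, miR9664, miR9669, miR9670, miR9772, miR1318, miR528 and miR530 had 30 tags, 4 higher (13.3%, against 8.91% of all tags) and 6 lower (20%, against 8.42%). Their median log2 fold change was 0.12, and all of these calls were in miR9662, miR9772 and miR528. Among the others, the 22-nt miR9669-1.1-5p stood at 12588 ± 1621 RPM in heat, against 11117 ± 1926 RPM in control (SD, n = 4 each, adjusted p = 0.69). The 5 tags of the small families miR2006, miR2012, miR2020, miR5062 and miR5064 had no call in either direction, with a median of 0.01. Of these, miR5062a-1 had 552, 971, 798 and 1573 RPM in the heat libraries, against 1367, 2779.8, 2246 and 1044 RPM in the control libraries, with the treatments overlapping (log2 fold change -0.93, adjusted p = 0.13).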

How the data were processed

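Small RNA of wheat leaves was sequenced in 24 libraries (TruSeq small RNA, MiSeq). The authors kept adapter-trimmed distinct sequences reaching 10 RPM in any library, matched them perfectly to precursors of IWGSC RefSeq v1.0 with Bowtie2, folded these with RNAfold (versions not given in the sources used here) and deposited raw counts per sequence and library. A sequence that is rare at 0 DAT can thus be listed for its level on another day, many match more than 1 locus and their counts cannot be split between loci, and without molecular identifiers intervals and floors cover counting error only. Of the deposited sequences, 35 stood as the reverse complement of the study's named sequences and were turned to these, and all 201 that have a listed precursor were found in it. Tag names and precursor sequences came from the study's supplement. The strand counted for these 35 is not settled, and it bears on first bases and seeds but not on counts, lengths or shortened pairs. Genome coordinates were not used here.

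Treatment, day and replicate number came from the sample labels. All tags were tested without a filter in edgeR 4.0.16 (R 4.3.3) by quasi-likelihood, with TMM scaling, 1 fit of 6 groups (common dispersion 0.128), Benjamini-Hochberg adjustment and a threshold of 0.05, for tags and for sums per family. RPM were computed from the counts with TMM library sizes. Fold changes are heat over control, and their SE came from the same fit. The study's likelihood-ratio test, DESeq2 1.42.0, other scalings, a count filter, a replicate block and leaving out each library were alternatives. Read shares and ratios (0.5 added to both counts in a test) were compared by two-sided exact permutation (own code, checked against scipy 1.17.1), whose smallest p is 0.0286. The test was tried on simulated counts. Replicate libraries differed by more than sampling noise (chi-square) and each counted as 1 sample. Each is a pool of 18 plants, so p-values measure the spread between pools.

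The text names every tag below the threshold, the main tag of families and the tags of shortened and arm pairs, with values per library for the 12 smallest p and for pairs with an exact p under 0.05. Per-library values of further tags were chosen after seeing them. Members and lists were chosen with earlier results of these data known.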

Additional observations from a re-analysis of the deposited data

Results flagged for a closer look

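One library stood apart from the other libraries of its treatment in 5 of 134 sets of 4 values, where chance alone marks about 5% of sets. Control library 4 was highest for miR166-12.2-3p, at 483 RPM against 400.2 to 409 RPM in the other control libraries, and was still below every heat library. Control library 1 was highest for miR1118-752-5p, at 73.4 RPM, where the lowest heat library had 83.7 RPM. Control library 3, which has the fewest reads of the 8, was highest for miR1121-33-5p, at 3166 RPM. It was also highest of the control libraries for the share of C tags outside miR166, at 12.5% (exact 95% binomial interval 11.9% to 13.1%). Heat library 1 was lowest for the share of G tags, at 0.415% (0.368% to 0.466%).

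The difference between heat and control changed with the day for several tags, by edgeR's interaction test with Benjamini-Hochberg adjustment over all tags. The same plants were sampled on the 3 days, and this test treats their libraries as independent. Relative to 0 DAT, the log2 fold change of heat over control at 1 DAT was higher by 6.14 for miR528-1.1-5p (adjusted p = 7.26e-07), by 3.28 for miR528-1.3-3p (adjusted p = 0.0207), by 1.88 for miR166-11-5p and by 1.69 for miR399-18-3p, and it moved by -2.28 for miR167-1-5p (adjusted p = 0.0492 for each of the last 3). At 4 DAT it was higher by 6.58 for miR528-1.1-5p (adjusted p = 1.79e-07) and by 1.70 for miR528-1.2-5p (adjusted p = 0.0466). Tag miR399-18-3p was not called at 0 DAT itself. With the replicate number of a treatment taken as a pool of the same plants across days (a block chosen after seeing the data), only miR528-1.1-5p kept its call at 1 DAT (6.04, adjusted p = 4.25e-05) and at 4 DAT (6.47, adjusted p = 1.27e-05). The other tags then had adjusted p-values of 0.0969 to 0.186 at 1 DAT, and miR528-1.2-5p one of 0.109 at 4 DAT.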

How the results depend on the processing

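Of the 35 called tags, 17 kept their call in every alternative fit that tested them and in all 8 fits without a library. The fit limited to a mean count of at least 20 did not test some of the 17, such as miR1121-18-3p and miR166-13-3p. None of the 35 reversed its direction. There were 37 calls with the 8 libraries of 0 DAT alone, 41 with the likelihood-ratio test, 35 with DESeq2, 34 with RLE scaling and 37 with miR166 left out of the scaling. Without TMM scaling there were 24, with 7 lower in place of 17. Among tags with a mean count of at least 20 there were 21, of which 7 higher, and 11 of the 18 higher tags had a lower mean count and were not in that test. Leaving out 1 library gave 22 to 35 calls, 12 to 17 higher and 10 to 18 lower. With the replicate block, with DESeq2 and without TMM scaling, 1 family was called, miR528, which was lower (1 lower). Leaving out 1 library gave 1 to 3 families, 0 to 1 higher and 1 to 2 lower. Tags whose heat effect at 1 DAT differed from that at 0 DAT numbered 9 with the likelihood-ratio test and 3 with RLE scaling, in place of 5, and for 4 DAT 7 with the likelihood-ratio test in place of 2. With plant pools as a replicate block across days, chosen after seeing the data, there was 1 for each day. Without the reads of miR166, 1 length class had an exact p under 0.05 in place of 2. For shares and ratios, the classes and pairs without overlap between treatments were counted when 1 library was left out. There were 2 to 3 length classes, 3 to 4 first-base classes in place of 3 (2 in the deposited orientation with all libraries), 11 to 13 shortened pairs in place of 11 and 6 to 7 arm pairs in place of 6. Leaving out a library cannot make separate treatments overlap. The counts without a library could therefore only stay or rise, and they do not bear on stability. The cause of these shifts was not tested.

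With the replicate number as a block, 28 tags were called (13 higher, 15 lower) and the family call of miR1135 was lost (adjusted p = 0.104). The labels do not tie equal numbers of the treatments to each other, and same-numbered libraries deviated together with r of 0.221, 0.268, -0.17 and 0.0283 over 110 tags, so the numbers were not taken to pair the libraries. Depth limits the rarer tags most, as 92 tags had a mean count under 20.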

Other observations

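The following was noticed after the values of the tags were seen and is a description, with no test. In the orientation shown, the 5p tags of miR1135 that fell share the stretch GGAATTACTTGTC. Read on both strands, it occurs in 17 tags (8.42% of all tags), 11 of miR1135 and 6 of miR1136. Of the 17, 5 were lower and 0 higher in heat, all 5 of miR1135, 14 had a log2 fold change below 0, and the median was -0.66. The 16 tags of miR1135 without the stretch had 0 lower and 1 higher, with a median of -0.25. The stretch was taken as the longest that the 5p tags of miR1135 that fell have in common. Those tags thus carry it by construction, and the split of lower tags by the stretch was largely fixed in advance.

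Called tags of miR1122 that overlap in sequence differed in direction. Tag miR1122-532-5p shares 19 bases with the 24-nt miR1122-1462-3p, on the opposite strand in the orientation shown and on the same strand in the deposited one, and which was counted is not settled. Tag miR1122-532-5p stood at 134, 236, 142 and 240.3 RPM in the heat libraries, against 73.4, 83.1, 30.1 and 101 RPM in the control libraries, and every heat library was higher. Tag miR1122-1462-3p stood at 100.4, 209, 142 and 98.3 RPM in the heat libraries, against 313, 326, 543 and 438 RPM in the control libraries, and every heat library was lower (adjusted p = 0.0119 by edgeR, and 0.118 without TMM scaling).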
